A study of Mus musculus with 4 samples.

Results

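The 10 genes described here encode transcription factors of the trophectoderm, the outer epithelium of the blastocyst that later forms the trophoblast of the placenta. They are Cdx2, Gata2, Gata3, Eomes, Elf5, Hand1, Tfap2a, Tfap2c, Tead4 and Id2. They were taken by symbol from a table of 22013 genes, and each of the 10 matched 1 row. Poly(A) RNA of C57BL/6 mouse blastocysts, grown in culture, was sequenced in 4 libraries, 2 from Ywhaz-KO embryos and 2 from control embryos, and every library came from a pool of 5 blastocysts. Ywhaz encodes 14-3-3 zeta, a protein that binds phosphorylated partners. The Ywhaz-KO embryos are described as edited with CRISPR-Cas9 against Ywhaz as zygotes, although the names of their libraries begin with si, which the labels do not explain. The control embryos are given by different labels as having received Cas9 protein alone, as having received a control guide RNA, and as untreated wild type. Edited zygotes can be mosaic and pools mix embryos, so a library need not hold 1 genotype. Nothing in the labels says whether the pools of a group had separate parents, so each p-value rests on the spread of these pools alone, which could be technical.

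TEAD4, with its coactivator YAP, turns on Cdx2 and Gata3 in the outer cells of the morula, where Hippo signalling is low. CDX2 then represses pluripotency genes and, with GATA3, TFAP2C and EOMES, sets up the trophectoderm programme. ELF5 maintains trophoblast stem cells together with EOMES, while HAND1 drives differentiation to trophoblast giant cells. ID2 has a helix-loop-helix domain without a DNA-binding region and holds back bHLH factors by pairing with their partners.

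Values are FPKM, fragments per kilobase of transcript and per 1e6 mapped fragments, so levels can be set side by side between genes. The libraries were alike in estimated depth, at 17.3 to 18.5 in units of 1e6 fragments, and had 15212 to 15490 genes above 0. The targeted transcript, Ywhaz, stood at 32.7 and 98.2 FPKM in Ywhaz-KO pools 1 and 2, against 143 and 123 FPKM in control pools 1 and 2. The 2 Ywhaz-KO pools thus differed widely in the transcript that was targeted, and pool 2 lay closer to the controls. Its log2 fold change of −1.21 ± 0.39 (SE) did not pass (limma adjusted p = 0.305, over the alternatives 2.79e-07 to 0.631). It was −0.43 without Ywhaz-KO pool 1 (limma adjusted p = 0.392) and −1.99 without Ywhaz-KO pool 2 (limma adjusted p = 2.79e-07). It passed at the same size with a replicate block of same-numbered pools (limma adjusted p = 0.00246) and with a crossed pairing, pool 1 of a group with pool 2 of the other, added after the data were seen (limma adjusted p = 0.0155). Fold changes are Ywhaz-KO over control on the log2(FPKM + 1) scale, which understates the change of low genes.

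Each of the 10 genes was detected in each library, over a wide range of levels. By the mean over the 4 libraries the order was Id2 at 334.9 FPKM, Gata3 at 26.1, Cdx2 at 21.7, Tfap2c at 14.3, Tead4 at 10.5, Eomes at 5.60, Hand1 at 2.94, Tfap2a at 2.61, Elf5 at 1.20 and Gata2 at 0.265 FPKM. The ranges over the libraries separated Id2 from Gata3, Tead4 from Eomes, and Elf5 from Gata2. The other neighbours in this order overlapped, although Gata3 was above Cdx2, Cdx2 above Tfap2c, and Tfap2a above Elf5 in each of the 4 libraries. Id2 made up 77.0% and 75.6% of the summed FPKM of the 10 genes in Ywhaz-KO pools 1 and 2, and 81.5% and 85.1% in control pools 1 and 2. The other 9 genes summed to 80.7 and 116 FPKM in the Ywhaz-KO pools and to 85.8 and 58.0 FPKM in the control pools. In bulk RNA of whole embryos, fewer cells of a type and less RNA per cell cannot be told apart.

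**Figure D1:**
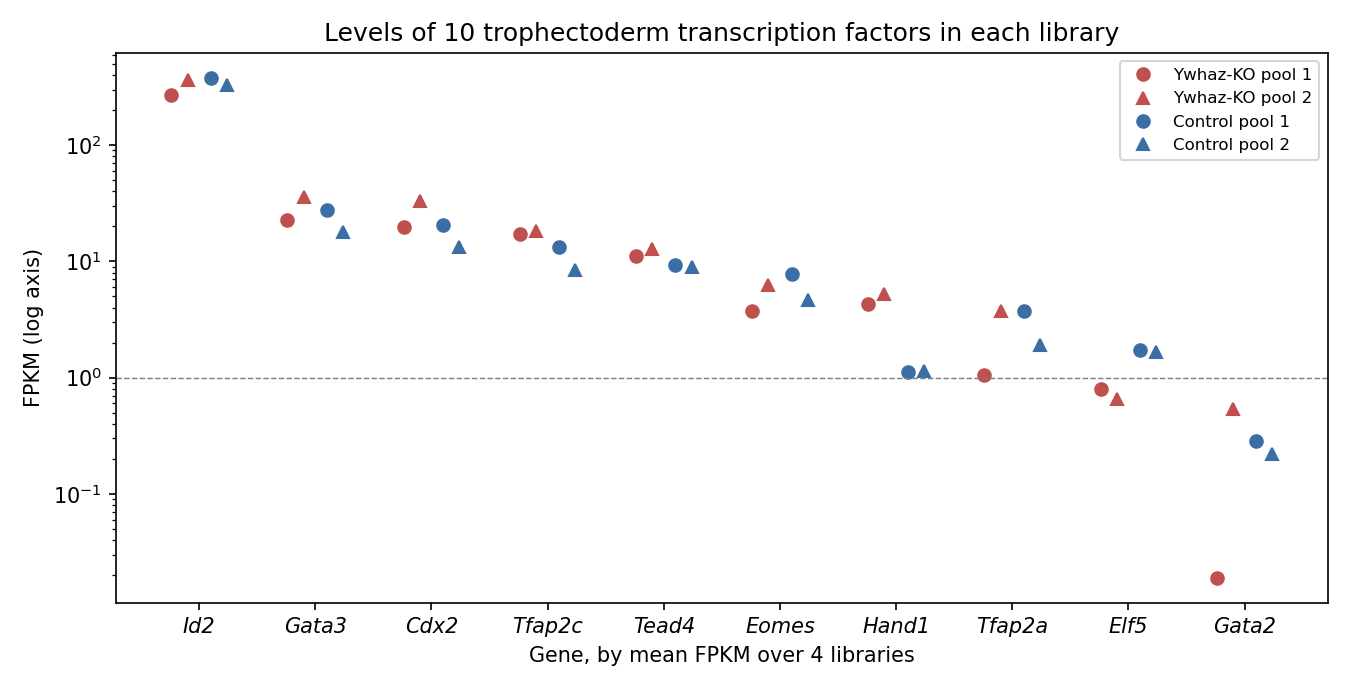
FPKM of each gene on a log axis, ordered by the mean over the 4 libraries, with 1 point per library; the dashed line marks 1 FPKM. The Hand1 points of both Ywhaz-KO pools lie above those of both control pools, the Elf5 points lie below, and Gata2 stays under 1 FPKM in each library.

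None of the 9 genes expressed highly enough to be tested, at a mean of at least 1 FPKM, passed an adjusted p of 0.05 in limma, where 7 of 9544 genes did (0.0733%). Gata2 was not tested. At an unadjusted p under 0.05 there were 3 of the 9, namely Hand1, Tfap2c and Elf5, against 11.1% of all genes tested. Hand1 was the 1 gene of the 10 with an FDR under 0.05 in the authors' deposited table, a mark reached there by 0.309% of the genes above 0 in any library. Of the 9 genes 5 had a positive and 4 a negative log2 fold change, and 56.0% of all genes tested had a positive one. Their median log2 fold change was 0.34, against 0.047 over all genes tested. It fell to 0.020 without Ywhaz-KO pool 2, against −0.0079 over all genes, and to 0.035 without control pool 2, against −0.0043 over all genes. The groups did not overlap for 4 of the 9, against 41.4% of all genes tested. Hand1, Tfap2c and Tead4 were higher in both Ywhaz-KO pools, as were 27.4% of all genes tested, and Elf5 was lower in both, as were 14.0%. Elf5 reached the minimum for testing only through the control pools, so its part in these counts is not independent of the filter. Of the 8 genes that reached it through both groups, 5 had a positive and 3 a negative log2 fold change. With 2 against 2 libraries the smallest p that an exact two-sided permutation test of 1 gene can give is 0.333.

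Hand1, which encodes a bHLH factor of trophoblast giant cells and lies on the minus strand at 57828705 to 57832818 of GRCm38 chromosome 11, showed the largest difference of the 9. It measured 4.33 and 5.19 FPKM in Ywhaz-KO pools 1 and 2, against 1.11 and 1.14 FPKM in control pools 1 and 2. Both Ywhaz-KO pools lay well above both controls, and the pools of each group lay close together. The mean was 4.76 ± 0.61 FPKM in Ywhaz-KO and 1.12 ± 0.02 FPKM in control pools (SD, n = 2 each), 4.24-fold higher in Ywhaz-KO. Its log2 fold change of 1.44 ± 0.24 (SE) ranked 8 of 9544 from the top and ranked 14 by p, with a limma adjusted p of 0.0982. At the estimated depth these values stand for about 133 and 153 fragments in Ywhaz-KO pools and about 35 and 36 in control pools, taking the longest annotated transcript. With each library left out the value lay between 1.33 and 1.54. It passed without Ywhaz-KO pool 1 (limma adjusted p = 0.00443), where 132 of 9544 genes did, and without Ywhaz-KO pool 2 (limma adjusted p = 0.0129), where 205 did. In both the lone Ywhaz-KO pool is assumed to vary like the controls, and the SE was larger than with all libraries, at 0.30 and 0.31. It did not pass without control pool 1 (limma adjusted p = 0.25) or without control pool 2 (limma adjusted p = 0.16), where 17 and 15 genes did. At the same size it passed with a replicate block of same-numbered pools (SE 0.36, limma adjusted p = 0.0204), where 38 genes did. It also passed with the crossed pairing (SE 0.21, limma adjusted p = 0.00407), where 475 did. With the block the SE was larger than in the fit without it, so the lower adjusted p does not rest on a tighter Hand1 estimate.

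Genes for the E proteins, which pair with HAND1 and are bound by ID2, and Ascl2 were measured at low levels. Tcf3, Tcf4 and Tcf12 encode the E proteins, the general partners of bHLH factors, and Ascl2 encodes a bHLH factor of the trophoblast lineage. Their log2 fold changes ran between 0.18 and 0.34, all 4 positive, as were 56.0% of all genes tested. None passed (limma, 0 of 4 also at an unadjusted p under 0.05). Tcf12 measured 1.56 and 2.22 FPKM in Ywhaz-KO pools, against 1.60 and 1.09 FPKM in control pools. Ascl2 measured 3.45 and 2.98 FPKM in Ywhaz-KO pools, against 3.56 and 1.42 FPKM in control pools. The groups overlapped for each of the 4. Hand2, the paralog of Hand1, was listed at 0.051 and 0 FPKM in Ywhaz-KO pools and at 0 in both control pools.

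Id2 itself, on chromosome 12, was by far the most abundant of the 10 transcripts. It measured 269.9 and 361.4 FPKM in Ywhaz-KO pools 1 and 2, against 377.5 and 330.8 FPKM in control pools 1 and 2. The groups overlapped, and the log2 fold change was −0.18 ± 0.19 (SE). Of its paralogs, Id3 measured 73.0 and 58.9 FPKM in Ywhaz-KO pools, against 88.2 and 75.8 FPKM in control pools, and Id1 measured 2.80 and 2.33 FPKM, against 2.21 and 1.82 FPKM. Neither passed (limma adjusted p = 0.608 for Id3 and 0.762 for Id1). Id4 stayed at or under 0.061 FPKM in each library.

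Elf5, which encodes an ETS factor of trophoblast stem cells and lies on the plus strand at 103411688 to 103450989 of GRCm38 chromosome 2, was the 1 of the 9 tested genes that was lower in both Ywhaz-KO pools than in both controls. It measured 0.793 and 0.649 FPKM in Ywhaz-KO pools 1 and 2, against 1.72 and 1.65 FPKM in control pools 1 and 2. The Ywhaz-KO mean was 0.721 ± 0.102 FPKM and the control mean 1.69 ± 0.05 FPKM (SD, n = 2 each), or 42.7% of the control level. Its log2 fold change of −0.64 ± 0.23 (SE) did not pass (limma adjusted p = 0.347). It ran from −0.70 to −0.58 with each library left out, and was −1.13 with a pseudocount of 0.1 FPKM (limma adjusted p = 0.363, and 0.108 to 0.948 over the alternatives). Elf5 reached the minimum for testing only through the control pools. About 44 and 34 fragments stand behind it in Ywhaz-KO pools and about 97 and 94 in control pools. The authors' deposited table lists it with an FDR of 0.84 and a log2 fold change of −1.23.

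Elf3, a paralog of Elf5 that is active in epithelia, was far more abundant and lay on the other side. It measured 77.8 and 99.4 FPKM in Ywhaz-KO pools, against 63.1 and 61.6 FPKM in control pools, without overlap (log2 fold change 0.49 ± 0.20 SE, limma adjusted p = 0.400). Ehf, another epithelial ETS gene, was listed at 0 in both Ywhaz-KO pools, against 0.186 and 0 FPKM in control pools.

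More than 1 start of Elf5 is in RefSeq, and their windows are shown because Elf5 was the 1 gene of the set lower in both Ywhaz-KO pools. Each window runs from 250 bases before to 50 bases after the start, read 5′ to 3′ on the gene's strand from RefSeq on GRCm38.p6, chr2:103411848-103412147 for the first and chr2:103423818-103424117 for the second. Capitals mark matches, on either strand, to any of 7 motifs: CATTCC (M-CAT, bound by TEAD proteins), CANNTG (the E-box of bHLH dimers), AGATAA (the site of GATA factors), GCCNNNGGC (AP-2), TTTATG (caudal, bound by CDX proteins), GGTGTGA (T-box) and AGGAAG (ETS). CANNTG and GCCNNNGGC read the same on both strands.
Elf5 first start: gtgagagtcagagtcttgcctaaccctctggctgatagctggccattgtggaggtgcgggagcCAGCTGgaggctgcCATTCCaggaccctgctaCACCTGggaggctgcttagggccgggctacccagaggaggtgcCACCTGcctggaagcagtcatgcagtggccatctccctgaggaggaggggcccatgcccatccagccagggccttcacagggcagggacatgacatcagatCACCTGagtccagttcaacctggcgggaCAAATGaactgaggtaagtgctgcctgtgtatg
Elf5 second start: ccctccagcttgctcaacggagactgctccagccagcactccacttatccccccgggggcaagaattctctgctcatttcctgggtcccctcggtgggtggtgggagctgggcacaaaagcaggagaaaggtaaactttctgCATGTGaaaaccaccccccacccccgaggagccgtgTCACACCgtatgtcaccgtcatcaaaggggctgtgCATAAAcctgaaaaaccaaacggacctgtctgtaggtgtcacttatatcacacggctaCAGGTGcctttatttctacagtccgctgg
The first window holds 5 E-boxes and 1 M-CAT match, which runs from base −173 to −168 counted from the start. The second window holds a T-box match from −72 to −66, a caudal match from −37 to −32 and 2 E-boxes. Of 32851 RefSeq windows of the same length, 72.3% hold an E-box, 14.7% an M-CAT match, 11.9% a caudal match and 3.98% the T-box match. A match describes letters only.

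Cdx2, the homeobox gene that specifies the trophectoderm, and Gata3, a zinc-finger gene acting beside it, differed as much between pools of a group as between groups. Cdx2, on chromosome 5, measured 19.9 and 33.0 FPKM in Ywhaz-KO pools 1 and 2, against 20.7 and 13.2 FPKM in control pools 1 and 2. Its mean was 26.5 ± 9.28 FPKM in Ywhaz-KO and 17.0 ± 5.24 FPKM in control pools (SD, n = 2 each), with a log2 fold change of 0.60 ± 0.29 (SE, limma adjusted p = 0.481). Gata3, on chromosome 2, measured 22.6 and 36.1 FPKM in Ywhaz-KO pools, against 27.9 and 17.8 FPKM in control pools (log2 fold change 0.35 ± 0.28 SE, limma adjusted p = 0.709). For both genes the groups overlapped, because Ywhaz-KO pool 1 lay below control pool 1. Leaving out Ywhaz-KO pool 2 gave 0.25 for Cdx2 and 0.020 for Gata3, and leaving out Ywhaz-KO pool 1 gave 0.95 and 0.67. Without control pool 1 the values were 0.90 and 0.66, and without control pool 2 they were 0.30 and 0.035.

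Eomes, which encodes a T-box factor needed for trophoblast stem cells, varied between the same pools. It measured 3.74 and 6.22 FPKM in Ywhaz-KO pools 1 and 2, against 7.76 and 4.66 FPKM in control pools 1 and 2. The groups overlapped (log2 fold change −0.27 ± 0.31 SE, limma adjusted p = 0.793), and the value turned positive without Ywhaz-KO pool 1 (0.035) and without control pool 1 (0.047).

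**Figure D2:**
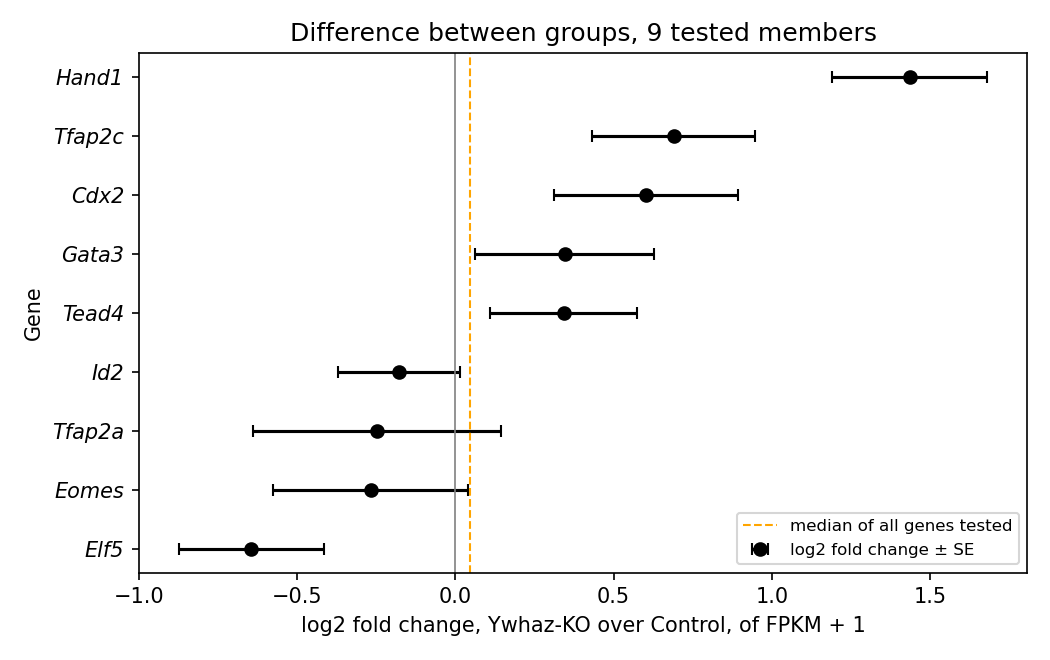
log2 fold change of Ywhaz-KO over control on the log2(FPKM + 1) scale for the 9 tested genes, with bars of 1 SE from limma and a dashed line at the median of all genes tested, 0.047. Hand1 stands apart at 1.44, Tfap2c, Cdx2, Gata3 and Tead4 lie above 0, and Elf5 is lowest at −0.64.

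The starts of Cdx2 (chr5:147307200-147307499, minus strand), Gata3 (chr2:9878551-9878850, minus strand) and Eomes (chr9:118477939-118478238, plus strand) are shown because these 3 genes differed alike between pools of a group. Between groups they did not move together, as Cdx2 and Gata3 had a positive log2 fold change and Eomes a negative one. The windows, capitals and build are as for Elf5.
Cdx2: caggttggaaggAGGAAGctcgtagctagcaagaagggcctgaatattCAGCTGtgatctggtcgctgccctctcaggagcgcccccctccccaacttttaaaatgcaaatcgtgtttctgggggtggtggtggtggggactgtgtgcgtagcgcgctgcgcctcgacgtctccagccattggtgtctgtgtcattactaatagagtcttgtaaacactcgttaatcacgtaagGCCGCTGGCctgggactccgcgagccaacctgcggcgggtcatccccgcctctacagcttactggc
Gata3: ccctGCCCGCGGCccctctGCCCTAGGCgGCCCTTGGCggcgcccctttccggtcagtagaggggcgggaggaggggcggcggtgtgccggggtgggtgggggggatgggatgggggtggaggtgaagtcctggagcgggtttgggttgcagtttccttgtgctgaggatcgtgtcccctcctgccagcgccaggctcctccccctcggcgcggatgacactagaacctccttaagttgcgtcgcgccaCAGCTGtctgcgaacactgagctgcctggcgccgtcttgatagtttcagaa
Eomes: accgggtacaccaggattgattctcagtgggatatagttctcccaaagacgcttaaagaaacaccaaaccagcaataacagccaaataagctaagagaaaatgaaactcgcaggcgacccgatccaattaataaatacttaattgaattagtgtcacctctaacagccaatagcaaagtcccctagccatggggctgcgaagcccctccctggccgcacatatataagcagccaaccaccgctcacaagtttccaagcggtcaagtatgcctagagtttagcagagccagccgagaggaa
The Cdx2 window holds 1 ETS match, 1 E-box and 1 AP-2 match, the last from −16 to −8. The Gata3 window holds 3 AP-2 matches between −246 and −213 and 1 E-box across the start. The Eomes window holds none of the 7 motifs. Among all windows 16.6% hold the AP-2 match, 35.4% the ETS match and 11.2% the GATA match, which none of these 3 windows has. The windows held 57.3%, 67.3% and 47.3% G and C bases for Cdx2, Gata3 and Eomes, against a median of 52.7% over all windows. RefSeq windows were matched for 7 of the 10 genes, the others being Hand1, Tfap2c and Tead4.

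The 2 AP-2 genes lay on different sides of 0. Tfap2c, which encodes AP-2 gamma, a factor acting with CDX2 in the outer cells, measured 17.2 and 18.3 FPKM in Ywhaz-KO pools 1 and 2, against 13.3 and 8.45 FPKM in control pools 1 and 2. Both Ywhaz-KO pools were above both controls, and the control pools were the more spread (log2 fold change 0.69, SE 0.26, limma adjusted p = 0.376). Leaving out control pool 1 gave 0.99, and leaving out control pool 2 gave 0.39. Tfap2a, which encodes AP-2 alpha, measured 1.06 and 3.75 FPKM in Ywhaz-KO pools, against 3.73 and 1.91 FPKM in control pools (log2 fold change −0.25, SE 0.39, limma adjusted p = 0.856). The groups overlapped and the Ywhaz-KO pools differed 3.53-fold, the widest gap within a group among the 9 tested genes. It was 0.35 without Ywhaz-KO pool 1, 0.10 without control pool 1, −0.85 without Ywhaz-KO pool 2 and −0.60 without control pool 2. Tfap2b and Tfap2e stayed at or under 0.506 FPKM, and Tfap2d was listed at 0 in each library.

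Tead4, the DNA-binding partner of YAP, measured 11.1 and 12.7 FPKM in Ywhaz-KO pools 1 and 2, against 9.35 and 8.92 FPKM in control pools 1 and 2. The groups did not overlap, with a log2 fold change of 0.34 ± 0.23 (SE, limma adjusted p = 0.634) that ran from 0.25 to 0.43 with each library left out. Tead4 was the highest of the 4 TEAD genes. Tead2 measured 2.07 and 3.02 FPKM in Ywhaz-KO pools, against 4.14 and 2.64 FPKM in control pools, Tead1 0.959 and 1.35, against 1.73 and 1.08 FPKM, and Tead3 stayed at or under 0.232 FPKM. Among 18 Hippo and TEAD coactivator genes 16 were tested, and none passed in limma. Of these 12 had a positive log2 fold change, against 56.0% of all genes tested, with a median of 0.10. At an unadjusted p under 0.05 there were 3, Stk4, Vgll4 and Vgll1, against 11.1% of all genes tested. Stk4, a Hippo kinase, measured 12.2 and 9.52 FPKM in Ywhaz-KO pools, against 4.46 and 4.96 FPKM in control pools (limma adjusted p = 0.215). Vgll4, which competes with YAP for TEAD proteins, measured 8.66 and 12.1 FPKM in Ywhaz-KO pools, against 7.81 and 4.92 FPKM in control pools (limma adjusted p = 0.442). Vgll1, a TEAD cofactor, lay the other way at 2.47 and 3.54 FPKM in Ywhaz-KO pools, against 6.63 and 4.16 FPKM in control pools (limma adjusted p = 0.434).

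Gata2, a GATA factor of trophoblast that acts beside GATA3, was the lowest of the 10. It measured 0.019 and 0.536 FPKM in Ywhaz-KO pools 1 and 2, against 0.282 and 0.222 FPKM in control pools 1 and 2. The value in Ywhaz-KO pool 1 stands for about 1 fragment, and the others for about 31, 17 and 14. The Ywhaz-KO pools lay on both sides of the controls, so the groups overlapped. Of the other GATA genes, Gata6, an endoderm factor, measured 32.7 and 35.0 FPKM in Ywhaz-KO pools, against 38.8 and 32.8 FPKM in control pools. Gata1, best known from blood, measured 17.1 and 16.2 FPKM in Ywhaz-KO pools, against 27.0 and 12.7 FPKM in control pools, and the groups overlapped. Gata4 measured 0.420 and 0.573 FPKM in Ywhaz-KO pools, against 1.14 and 1.24 FPKM in control pools. Gata5 was listed at 0 in each library.

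**Figure D3:**
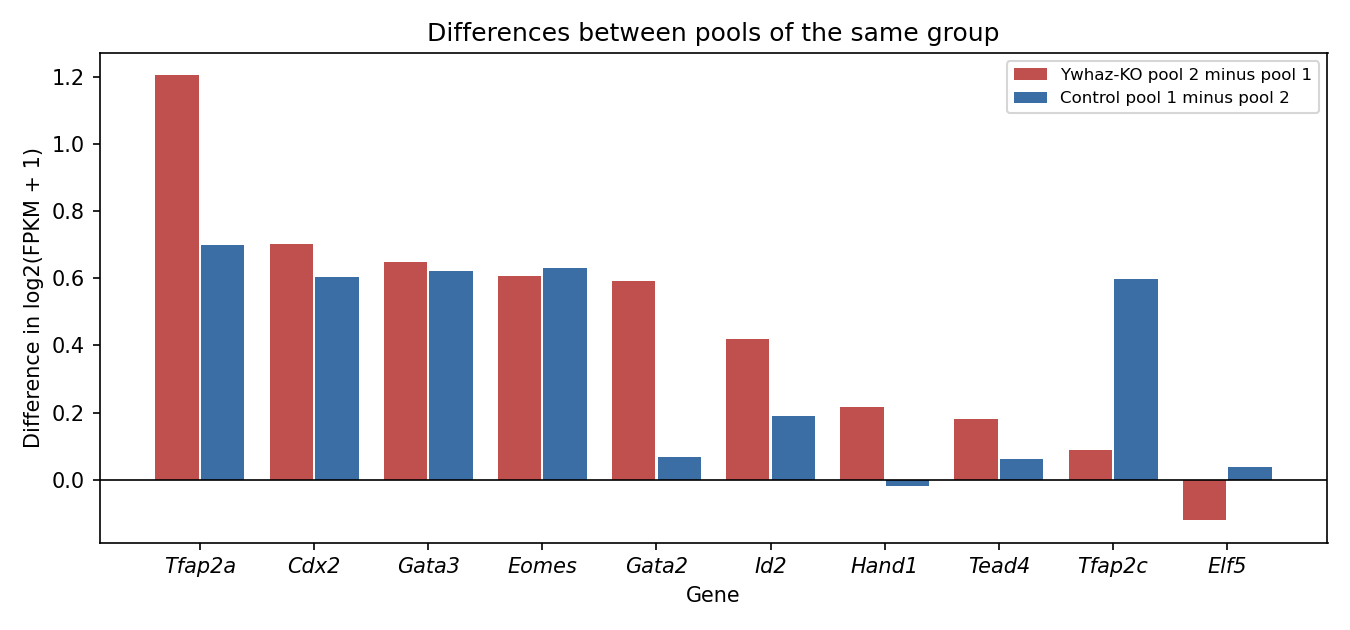
Difference in log2(FPKM + 1) between the 2 pools of a group for each gene, as Ywhaz-KO pool 2 minus pool 1 and control pool 1 minus pool 2. For Cdx2, Gata3 and Eomes the bars of both groups lie between 0.60 and 0.70, while those of Hand1, Elf5 and Tead4 are short.

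The pools of a group differed in the same way for most of these genes. Control pool 1 was above control pool 2 and Ywhaz-KO pool 2 above Ywhaz-KO pool 1 for 7 of the 9 tested genes, against 49.7% of all genes tested. Ywhaz-KO pool 2 was 1.66-fold above pool 1 for Cdx2, 1.59-fold for Gata3 and 1.66-fold for Eomes. Control pool 1 was 1.56-fold above pool 2 for Cdx2, 1.57-fold for Gata3 and 1.67-fold for Eomes. Hand1 and Elf5 were the exceptions. Ywhaz-KO pool 2 over pool 1 was 1.20-fold for Hand1 and 0.818-fold for Elf5. Control pool 1 over pool 2 was 0.977-fold and 1.04-fold. Tfap2c and Tead4, which followed the pattern, were closer in the Ywhaz-KO pools, at 1.07-fold and 1.15-fold. The same libraries differed beyond these genes, and the part of this in the results was not tested. Size factors from median-of-ratios scaling ran the same way. They were 0.974 and 1.10 in Ywhaz-KO pools 1 and 2 and 1.03 and 0.922 in control pools 1 and 2. The share of summed FPKM in mitochondrial genes was 9.08% and 7.57% in Ywhaz-KO pools 1 and 2 and 7.83% and 9.06% in control pools 1 and 2. Dab2, an endocytic adaptor gene listed among the primitive endoderm markers, measured 394.3 and 598.8 FPKM in Ywhaz-KO pools and 509.9 and 362.9 FPKM in control pools.

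Set against Cdx2 within a library, Gata3 and Eomes were nearly constant within each group. This ratio was chosen after the values were seen. Eomes over Cdx2 was 0.188 in both Ywhaz-KO pools, against 0.376 and 0.352 in control pools 1 and 2. Gata3 over Cdx2 was 1.14 and 1.09 in Ywhaz-KO pools, against 1.35 and 1.34 in control pools. Hand1 over Cdx2 was 0.217 and 0.157 in Ywhaz-KO pools, against 0.0537 and 0.0857 in control pools. Elf5 over Cdx2 was 0.0398 and 0.0196 in Ywhaz-KO pools, against 0.0834 and 0.125 in control pools. A lower ratio to Cdx2 without overlap was common, since 48.9% of all genes tested showed it, and 14.4% showed it by at least as much as Eomes. A higher one without overlap, as for Hand1, was seen for 0.995%. Cdx2 itself had a positive log2 fold change of 0.60, and as the divisor it lowers the ratios in Ywhaz-KO. These shares therefore depend on Cdx2 as well as on the other gene. Id2 and Tfap2a over Cdx2 were also lower without overlap. Among the 9 tested genes the ratio did not overlap for 28 of 36 pairs. These pairs share genes, and the share over pairs of all genes was not computed, so the count is a description only.

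**Figure D4:**
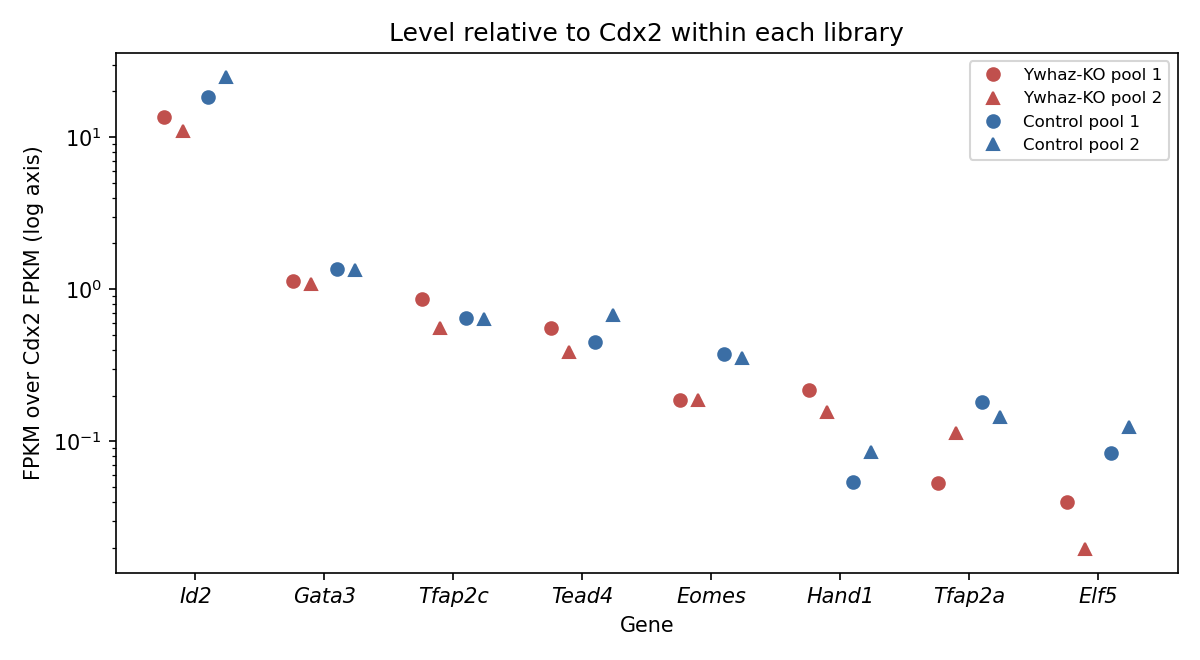
FPKM of 8 genes divided by the Cdx2 FPKM of the same library, on a log axis, with 1 point per library. The Eomes points fall at 0.188 in both Ywhaz-KO pools, below 0.376 and 0.352 in the control pools, and Hand1 is the 1 gene whose Ywhaz-KO points all lie above the control points.

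**Figure D5:**
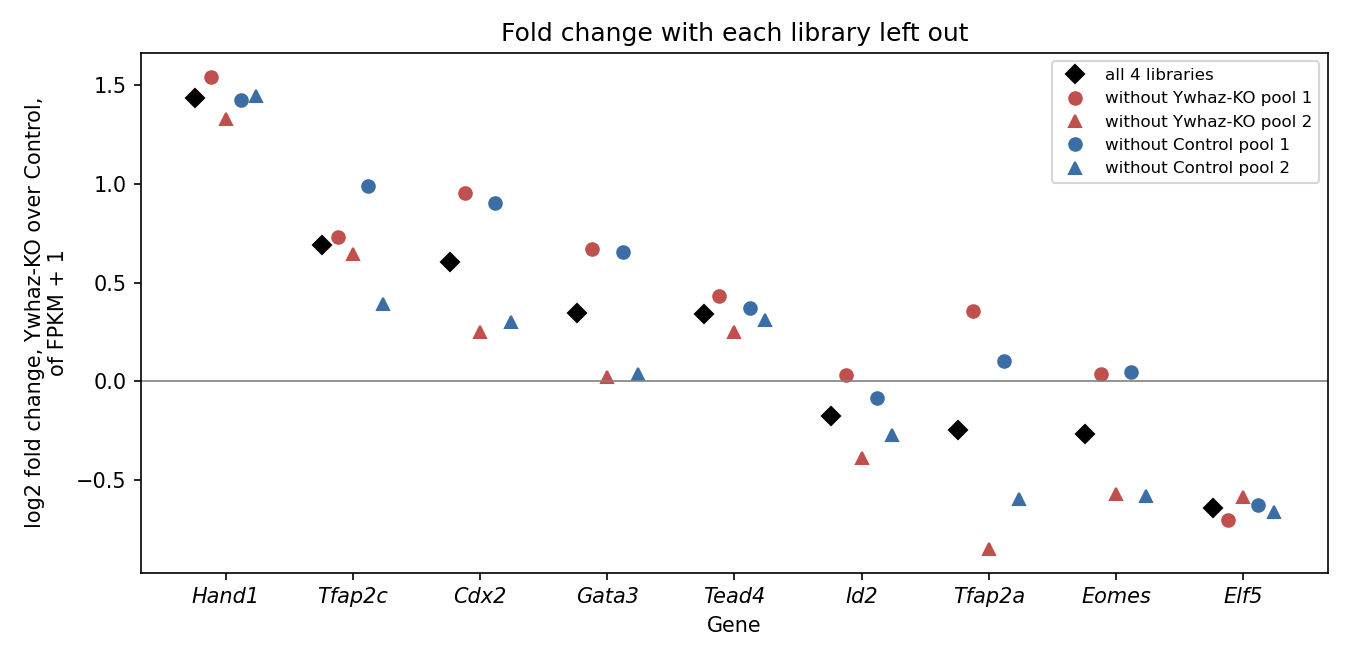
log2 fold change of Ywhaz-KO over control on the log2(FPKM + 1) scale for the 9 tested genes, with all 4 libraries and with each library left out. Hand1, Elf5 and Tead4 keep narrow bands, Cdx2 runs from 0.25 to 0.95, and Eomes, Tfap2a and Id2 cross 0.

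Other transcription factors of the trophoblast lineage gave a median log2 fold change of 0.15. Of 22 listed 11 were tested, and 8 of these were positive, against 56.0% of all genes tested. None passed in limma, and 2 had an unadjusted p under 0.05, both higher, against 11.1% of all genes tested. Sox15, a SOX factor that acts in trophoblast giant cells, measured 204.6 and 191 FPKM in Ywhaz-KO pools, against 113 and 125 FPKM in control pools (log2 fold change 0.73 ± 0.18 SE, limma adjusted p = 0.215). Satb1, a chromatin organiser of trophoblast stem cells, measured 4.75 and 6.79 FPKM in Ywhaz-KO pools, against 3.22 and 3.41 FPKM in control pools (limma adjusted p = 0.414). Rbpj, the Notch effector that acts with TEAD4 on Cdx2, measured 11.98 and 14.2 FPKM in Ywhaz-KO pools, against 10.01 and 8.17 FPKM in control pools (limma adjusted p = 0.493). Msx2, a homeobox gene, was lower at 2.59 and 4.16 FPKM in Ywhaz-KO pools, against 6.30 and 4.45 FPKM in control pools (limma adjusted p = 0.513). Of the 20 paralogs of the 10 genes 8 were tested, with a median log2 fold change of −0.11, and none passed in limma, with 1, Elf3, at an unadjusted p under 0.05.

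Genes that carry out trophectoderm functions had a median log2 fold change of −0.07. Of 23 tested 8 were positive and 15 negative, where 56.0% of all genes tested were positive. None passed in limma, and 3 had an unadjusted p under 0.05, against 11.1% of all genes tested. Cldn6, a tight junction claudin, measured 29.3 and 37.6 FPKM in Ywhaz-KO pools, against 50.9 and 60.1 FPKM in control pools (limma adjusted p = 0.278). Lgals3, which encodes galectin-3, measured 36.8 and 39.7 FPKM in Ywhaz-KO pools, against 58.7 and 56.6 FPKM in control pools (limma adjusted p = 0.312). Krt18, a keratin of simple epithelia, lay the other way at 99.8 and 138.5 FPKM in Ywhaz-KO pools, against 85.5 and 69.4 FPKM in control pools (limma adjusted p = 0.347). Tspan8, a tetraspanin, measured 28.8 and 59.2 FPKM in Ywhaz-KO pools, against 81.1 and 53.2 FPKM in control pools, with overlap.

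Genes of differentiated trophoblast, the cells in which HAND1 acts, were mostly low or at 0. Of 14 listed genes 5 were at 0 in every library, among them the giant cell lactogen gene Prl3d1, and 2 were tested. Prl3b1, a placental lactogen gene, measured 19.6 and 8.40 FPKM in Ywhaz-KO pools, against 7.74 and 7.34 FPKM in control pools (limma adjusted p = 0.477), so the higher mean rests mainly on Ywhaz-KO pool 1. Plac8 measured 1.04 and 1.504 FPKM in Ywhaz-KO pools, against 0.872 and 2.05 FPKM in control pools. Neither passed in limma, and 0 had an unadjusted p under 0.05.

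Markers of the other cells that a pool could hold gave no gene that passed in limma, and their part in the results was not tested. Of 12 tested epiblast markers 9 had a positive log2 fold change, with a median of 0.21. At an unadjusted p under 0.05 there were 3, Tdh, Pou5f1 and Nanog, all higher. In both Ywhaz-KO pools 5 were higher than in both controls, while 1 was lower. Over all genes tested 56.0% had a positive log2 fold change and 11.1% an unadjusted p under 0.05. Without overlap 27.4% were higher and 14.0% lower. The summed FPKM of the 13 genes was 10830 and 11640 in Ywhaz-KO pools, against 11850 and 10490 in control pools, most of it from Dppa5a. The other 12 summed to 1173 and 1390 FPKM in Ywhaz-KO pools, against 1052 and 1071 FPKM in control pools, without overlap. Most of that came from Fbxo15, at 636.5 and 789.6 FPKM in Ywhaz-KO pools, against 553.9 and 621.6 FPKM in control pools. Pou5f1, the gene for OCT4, measured 179 and 201 FPKM in Ywhaz-KO pools, against 115 and 121 FPKM in control pools (limma adjusted p = 0.257). Of 15 primitive endoderm markers 10 were tested, and 3 of these, Sox17, Lamb1 and Cubn, reached the minimum for testing only through the control pools. Of the other 7 tested, 6 had a negative and 1, Dab2, a positive log2 fold change. At an unadjusted p under 0.05 there were 2 of the 10, Sparc and Sox17, both lower. The groups did not overlap for 4, all lower, namely Sparc and the 3 that were tested only through the control pools. The 15 summed to 442 and 653.7 FPKM in Ywhaz-KO pools, against 579.9 and 417.5 FPKM in control pools, and without Dab2 to 47.8 and 54.9 FPKM, against 70.0 and 54.6 FPKM. Sparc, a basement membrane gene, measured 2.17 and 5.41 FPKM in Ywhaz-KO pools, against 12.7 and 6.65 FPKM in control pools (limma adjusted p = 0.305). Sox17, an endoderm factor, measured 0.521 and 0.523 FPKM in Ywhaz-KO pools, against 1.13 and 2.03 FPKM in control pools. The cumulus and follicle markers summed to 10.04 and 7.37 FPKM in Ywhaz-KO pools, against 11.3 and 9.81 FPKM in control pools, with overlap. Most of this came from Amhr2. The other 11 summed to 1.545 and 1.531 FPKM in Ywhaz-KO pools, against 1.896 and 1.572 FPKM in control pools, with Has2 and Cyp19a1 at 0 in each library. Oocyte markers summed to 36.9 and 41.5 FPKM in Ywhaz-KO pools, against 45.8 and 42.5 FPKM in control pools, and blood and immune markers to 39.2 and 25.9 FPKM, against 24.9 and 39.7 FPKM.

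The genes most like Cdx2, Hand1 and Elf5 in their pattern were found by the root mean square distance between log2(FPKM + 1) values centred on each gene's mean, over 4 libraries and 9544 genes. Nearest to Cdx2 were H2-Q2, Siah1a and Sord, at distances of 0.025, 0.043 and 0.047. Nearest to Hand1 were Leo1, a subunit of the PAF1 elongation complex, Impdh2, an enzyme of guanine nucleotide synthesis, and Cep89, a centrosomal gene, at 0.087, 0.11 and 0.12. Leo1 measured 10.9 and 12.1 FPKM in Ywhaz-KO pools, against 3.73 and 3.12 FPKM in control pools. Nearest to Elf5 were the histone gene H4c9, the annexin gene Anxa6 and the glutathione transferase gene Gstp1, at 0.024, 0.037 and 0.045. Gstp1 measured 598 and 579 FPKM in Ywhaz-KO pools, against 903 and 855 FPKM in control pools. With 4 libraries many genes share a pattern, so these distances are a description.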

How the data were processed

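Poly(A) RNA-seq values were taken from 1 deposited table with FPKM for each of the 4 libraries, rounded by the authors, per the file headers and values. DESeq2, RSEM, StringTie 1.3.1, HISAT2 2.1.0, Bowtie2 2.2.8, fastp 0.18.0 and the build GRCm39 appear in the submitters' processing notes, without roles. The deposited table also holds the authors' log2 fold change of group means and the authors' p-value and FDR, made with an unnamed tool. It holds no counts, so log2(FPKM + 1) was fitted in limma 3.58.1 (R 4.3.3, trend on) for the 9544 genes whose mean reached 1 FPKM, with Benjamini-Hochberg adjustment and 2 residual degrees of freedom, and was tested on simulated data.

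The members and lists were chosen with earlier results of these data known. A rule picked from each list up to 4 tested genes with the smallest p, and not all of these are named in the text. The other genes named were chosen after their values were seen. Pools were named by the labels' replicate numbers, and same-numbered pools deviated oppositely (r = −0.24 across 9544 genes), so no pairing was assumed.

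Depth came from the spacing of low values in transcripts over 1500 nt, with an assumed fragment of 200 nt. Of these values 80.3% to 87.0% lay within 10% of a whole fragment. Gene positions are from GENCODE M21 on GRCm38, not the submitters' build. That annotation has genes overlapping Gata3, Eomes, Tfap2a and Tead4, mostly on the opposite strand. Reads of those may be shared if counting ignored strand, which no label states. For Gata3 the overlapping 9230102O04Rik lies on the same strand, so its reads may be shared either way. None of the overlapping genes has a row in the deposited table. Alternatives were another pseudocount, filter, scaling or trend, a replicate block, and leaving out each library.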

Additional observations from a re-analysis of the deposited data

How the results depend on the processing

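The count of genes passing in limma was 7. It was 0 with no filter on low values (1400 genes at an unadjusted p under 0.05) and with quantile normalization (1249), 13 with TPM scaling, 4 with median-of-ratios scaling and 3 without the intensity trend. With a replicate block of same-numbered pools it was 38. With the crossed pairing, added after the data were seen because same-numbered pools deviated oppositely, it was 475. It ran from 15 to 205 with each library left out, where 1 residual degree of freedom remains. Of the tested trophectoderm factors, 0 passed with all libraries, 1 with the replicate block and 1 with the crossed pairing, and 0 to 1 with a library left out; in each case of 1 it was Hand1. Hand1 kept a positive log2 fold change in each alternative run, from 1.33 to 1.98, with limma adjusted p from 0.00407 to 0.53. The median log2 fold change of the tested factors ran from 0.020 without Ywhaz-KO pool 2 to 0.43 without Ywhaz-KO pool 1, and from 0.17 to 0.38 in the other alternatives. The median over all genes tested was −0.028 with median-of-ratios scaling and 0.077 with TPM scaling. With a library left out, Id2 ran from −0.39 to 0.032, Eomes from −0.58 to 0.047 and Tfap2a from −0.85 to 0.35. At a minimum of 5 FPKM, Hand1, Tfap2a and Elf5 are not tested. The other log2 fold changes kept their sign and side of the threshold, except that Ywhaz passed with the block, the crossed pairing and without Ywhaz-KO pool 2. The causes were not tested. The estimated depth puts about 1 to 31 fragments behind Gata2 and about 34 to 97 behind Elf5 in a library.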
